A study of Mus musculus with 6 samples.

Results

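The miR-130 and miR-301 family was measured in 2 kinds of bone marrow endothelial cells (ECs), type H and type L, of untreated wild type C57BL/6 mice of 1 month of age. Its members were taken by name from a mouse miRNA microarray, as the 3p arms mmu-miR-130a-3p, mmu-miR-130b-3p, mmu-miR-301a-3p and mmu-miR-301b-3p (written below without the species prefix), which made 4 of the 1881 miRNAs on the array. In these cells miR-130a-3p and miR-301a-3p were detected on all 6 arrays and both were higher in type H than in type L ECs. The folds were 1.42 and 2.15 after quantile normalization, and 1.38 and 1.78 before it. Of the 311 miRNAs tested 44.7% were higher in type H at an adjusted p under 0.05 by limma. Each cell type had a slide of its own. miR-130b-3p and miR-301b-3p were detected on no array. A further miRNA with the same seed, miR-721, was detected in type L ECs on 3 of 3 arrays and in type H ECs on 0 of 3. That pattern of detection held for 13.5% of the 311 miRNAs tested.

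A miRNA guides an Argonaute protein to messenger RNAs that pair with its seed, bases 2 to 8 from its 5′ end, and lowers the output of those messages. miRNAs with the same seed form a family because they can pair with many of the same sites, and the rest of the sequence differs from member to member. In endothelial cells miR-130a is known as a pro-angiogenic miRNA that represses the antiangiogenic homeobox genes Gax and Hoxa5.

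The mature sequences, from RefSeq on the mouse build GRCm38.p6, show what the members shared and where they parted. They are written 5′ to 3′ with the seed in capitals, and miR-721 is set below the members because it was detected on the type L arrays alone. The table used held 3 of the 4 members, and miR-301b-3p is therefore given by name.
miR-130a-3p: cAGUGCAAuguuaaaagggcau
miR-130b-3p: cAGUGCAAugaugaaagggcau
miR-301a-3p: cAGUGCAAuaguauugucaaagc
miR-721: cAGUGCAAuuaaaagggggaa

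Of 1679 mature mouse miRNAs in that table, 7 (0.417%) had this seed, and all 7 were on the array. The 4 that were not members were miR-721, miR-130c, miR-6341 and miR-6389. miR-130a-3p and miR-130b-3p were the same at 20 of 22 positions and differed by U11A and A13G, counted from the 5′ end with the base of miR-130a-3p first. miR-130a-3p and miR-301a-3p had the first 9 bases in common and differed at 10 of the 22 positions compared.

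The mature miR-130a-3p lies at chr2:84741116-84741137 on the minus strand, and no other annotated gene spanned its whole hairpin gene. The mature miR-301a-3p lies at chr11:87113054-87113076 on the plus strand within Ska2, a gene of the spindle and kinetochore complex. The mature miR-130b-3p lies at chr16:17124071-17124092 on the minus strand, and its hairpin gene and that of miR-301b-3p were neighbours within the gene 2610318N02Rik. The mature miR-721 lies at chr5:136375777-136375797 on the minus strand within Cux1, a homeobox gene. Whether these positions are exonic or intronic was not analysed here.

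Each miRNA was read through short DNA probes that pair with it from its 3′ end inwards. The longest probe of miR-130a-3p pairs with bases 4 to 22 and that of miR-301a-3p with bases 3 to 23, which takes in most of the seed. The probes of members with like 3′ parts were thus nearly alike. They are shown because the detected and the undetected member of each pair were told apart by very few bases, here in capitals. Of each pair of members the longest probes are given, 5′ to 3′.
miR-130a-3p probe: atgccctttTaAcattgca
miR-130b-3p probe: atgccctttCaTcattgc
miR-301a-3p probe: gctttgacaatacTattgcac
miR-301b-3p probe: gctttgacaatacCattgca

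Counted from the probe's 5′ end, the probes of miR-130a-3p and miR-130b-3p differed by T10C and A12T, and those of miR-301a-3p and miR-301b-3p by T14C. Each miRNA had 30 spots on an array, divided among its 2 to 4 probes.

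The array profile was made to find miRNAs that differ between type H ECs, which are high in CD31 and endomucin (CD31hiEmcnhi) and line the vessels coupled to bone formation, and type L ECs, which are low in both (CD31loEmcnlo). There were 3 arrays of each, with genotype, strain and age the same in both groups. The labels call the mice male and the study's methods call them female. The labels also call the samples biological replicates, but the number of mice behind each sample was not given in the sources used here. The p-values therefore measure the spread between these samples, which may still be technical. The labels describe culture of the sorted cells in endothelial growth medium on fibronectin before RNA extraction, a step that the methods on the arrays do not mention. The cells were sorted as CD45- Ter119-. The study's methods call the gates for high CD31 and Emcn arbitrary and describe none for the CD31loEmcnlo cells.

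The type H arrays detected 281, 263 and 264 miRNAs and the type L arrays 295, 309 and 298. On all 3 type L arrays and no type H array 42 miRNAs were detected, and 19 the other way round. Within a cell type the 231 miRNAs detected on all 6 arrays correlated at 0.998 to 0.999, and between cell types at 0.928 to 0.943. Each cell type had a slide and a scan session of its own, so that a slide effect and the difference between the cells cannot be told apart. The endothelial miR-126a, the defining miRNA of the labelled cell type, was detected on 0 of 6 arrays in either arm, and its summed normalized signal over both arms was 2.99 to 4.39 in type H and 0.190 to 0.692 in type L ECs. The 6 haematopoietic miRNAs listed were also detected on 0 of 6 arrays, at summed signals of 6.86 to 7.20 in type H and 3.30 to 3.45 in type L. These sums of undetected miRNAs are not read as a difference between the cell types. Of 7 stromal miRNAs listed, 6 were detected on all 6 arrays, and their summed normalized signal was 965 to 987 in type H and 839 to 867 in type L. The part of other cells in the values below was not tested. In sorted or cultured populations measured in bulk, fewer cells of a type and less RNA per cell cannot be told apart.

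miR-130a-3p, the pro-angiogenic member, was clearly detected in both cell types and moderately higher in type H. Its summed probe signal, in the scanner's linear units and before any normalization, was 275.8, 229.3 and 221.5 on the type H arrays and 167.0, 175.5 and 185.7 on the type L arrays. Every type H array lay above every type L array, and the mean signals were 242 ± 29.3 and 176 ± 9.39 (SD, n = 3 each), a ratio of 1.38. After quantile normalization, which gives all arrays the same set of values, its log2 signal was 7.96 on each type H array and 7.44, 7.37 and 7.55 on the type L arrays. The type H values were identical because miR-130a-3p held rank 26 of 1881 on each of those arrays, so that their spread after normalization understates the spread before it. On the type L arrays its rank was 36, 37 and 33. The log2 difference was 0.51 (SE 0.049, 95% confidence interval 0.38 to 0.63), or 1.42-fold (1.30 to 1.55), with an adjusted p of 0.000167 by limma with Benjamini-Hochberg adjustment over 311 miRNAs. An exact two-sided permutation test over the 6 arrays gave 0.10, the smallest p that 3 against 3 arrays allow.

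miR-301a-3p differed more between the cell types. Its summed probe signal was 38.1, 29.9 and 29.3 on the type H arrays and 17.5, 18.2 and 19.1 on the type L arrays. The 2 cell types did not overlap, with means of 32.4 ± 4.90 and 18.2 ± 0.803 (SD, n = 3 each) and a ratio of 1.78. On the normalized log2 scale the type H values were 5.17, 5.12 and 5.15 and the type L values 4.0, 4.07 and 4.07. The log2 difference was 1.11 (SE 0.034, 95% confidence interval 1.02 to 1.19), or 2.15-fold (2.03 to 2.28), with an adjusted p of 4.62e-06 by limma with Benjamini-Hochberg adjustment. The exact two-sided permutation p was again 0.10, the smallest that can be reached.

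**Figure D1:**
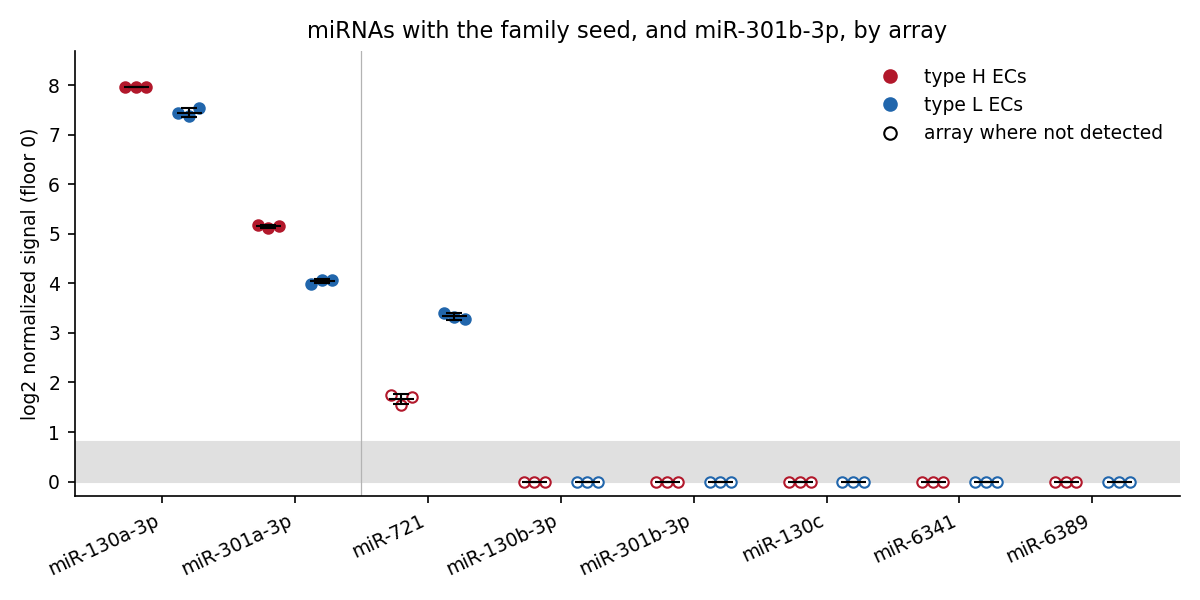
Log2 normalized signal (y axis, values under 1 set to 1 before log2) of each miRNA with the family seed and of miR-301b-3p (x axis) on the 3 type H (red) and 3 type L (blue) arrays, with filled points where the miRNA was detected, open points where it was not, black bars for mean ± SD, and grey shading for the range over arrays of the lowest detected value. miR-130a-3p and miR-301a-3p sit higher in type H, miR-721 sits higher in type L, and the other 5 lie at the floor.

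Both detected members thus passed the test and were higher in type H, against 86.8% of the 311 miRNAs tested that passed it in either direction and 44.7% that passed it as higher in type H. The arrays of the 2 cell types did not overlap, with type H higher, for 45.7% of the miRNAs. Passing the test was the rule on these arrays rather than the exception, and the size of a change says more about a member than its adjusted p. By size, miR-301a-3p ranked 26 of 311 from the top, so that 8.36% of the miRNAs were higher by at least as much. miR-130a-3p ranked 87, with 28% higher by at least as much. The median log2 difference of all miRNAs tested was 0.026. Detection on all 6 arrays was less common, since 12.3% of the 1881 miRNAs reached it and 81.5% were detected on no array.

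**Figure D2:**
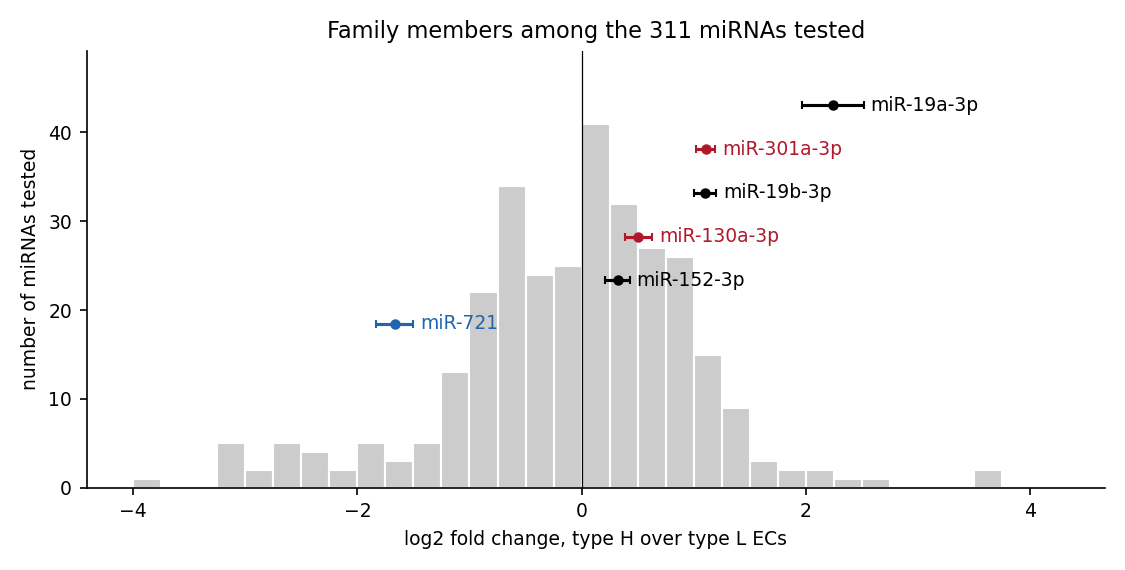
Number of miRNAs (y axis, grey bars) by log2 fold change of type H over type L ECs (x axis) for the 311 miRNAs tested, with points and 95% confidence intervals for the 2 detected members (red), miR-721 (blue) and the miRNAs with a shifted seed (black), whose heights were set for legibility only. miR-301a-3p at 1.11 lies in the upper tail, miR-130a-3p at 0.51 nearer the bulk, and miR-721 at -1.67 in the lower tail. The interval of miR-721 is not read as a test, because that miRNA was selected through its type L arrays alone.

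The size of both changes depended on how the arrays were put on a common scale. With each array scaled on its 75th percentile over the detected miRNAs, the log2 difference was 0.72 for miR-301a-3p, more than 1.5 times smaller, and 0.35 for miR-130a-3p. With no normalization the differences were 0.82 and 0.45. The median of all miRNAs moved in the same way, from 0.026 to -0.27 under the percentile scaling and -0.17 without normalization. Relative to that median miR-130a-3p stood 0.48 higher after quantile normalization and 0.62 higher under the linear scalings, and miR-301a-3p stood 1.08 and 0.99 higher. Both were past the threshold as higher in type H under the percentile scaling, as were 31.5% of all miRNAs, and without normalization, as were 30.5%. The control features of the array bear on the values without normalization, since the 10 of 21 that were detected on all 6 arrays were all higher on the type H slide, by a median of 0.60 on the log2 scale (0.21 to 1.47). The median control thus differed by more than miR-130a-3p and by less than miR-301a-3p without normalization, and the part of such a shift in the members' values was not tested.

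**Figure D3:**
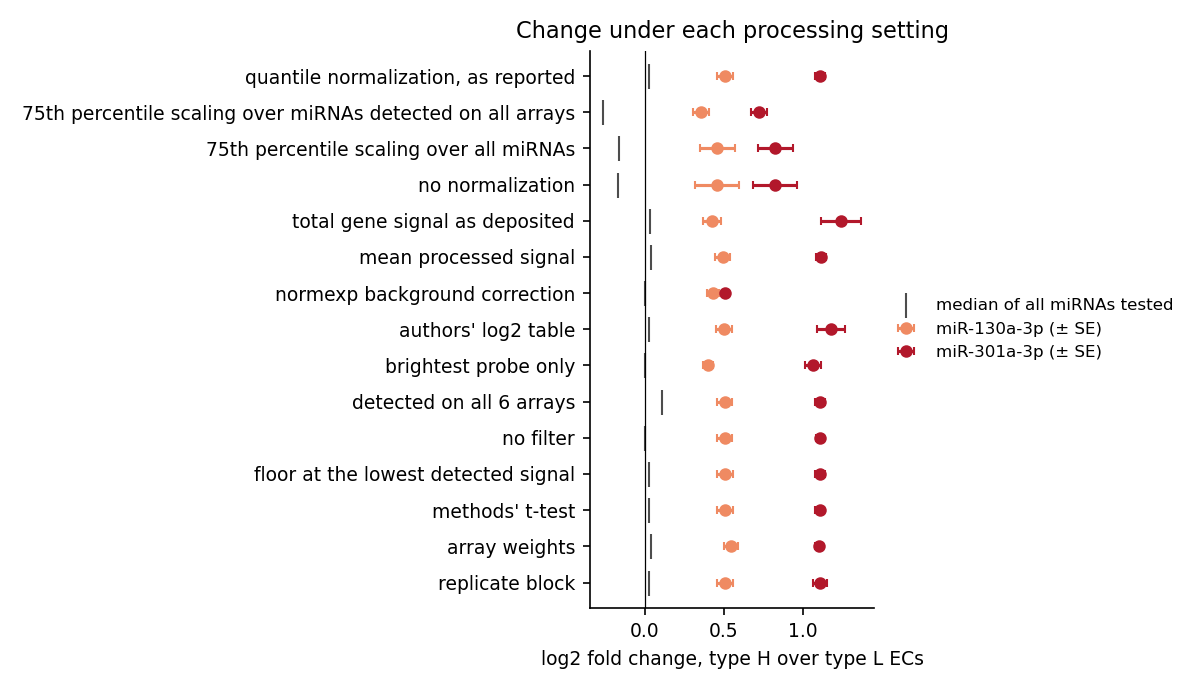
Log2 fold change of type H over type L ECs (x axis) of miR-130a-3p (orange) and miR-301a-3p (red), with standard errors, under each way of processing (y axis), beside the median of all miRNAs tested (grey tick). Both members stay to the right of 0 under every setting shown, miR-130a-3p between 0.35 and 0.54 and miR-301a-3p between 0.50 and 1.24.

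Since any scaling common to an array cancels between a pair of miRNAs on the same array, the log2 signal of miR-301a-3p minus that of miR-130a-3p was compared between the cell types. This was the 1 pair of members that could be compared. After quantile normalization the difference was -2.81 ± 0.025 in type H and -3.41 ± 0.087 in type L ECs (SD, n = 3 each), and no type H array overlapped a type L array. miR-301a-3p therefore changed by 0.60 more than miR-130a-3p on the log2 scale, with an exact two-sided permutation p of 0.10, the smallest possible. On the linear scalings, where the array's scale cancels fully, the gap was 0.37, from -2.90 ± 0.043 in type H to -3.27 ± 0.013 in type L, and again there was no overlap. Quantile normalization is not a common factor and moved this gap by more than 1.5 times.

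The separate probes of each member gave the same direction. For miR-130a-3p the 19-base probe read 146.0 to 182.2 in type H and 109.3 to 121.8 in type L ECs before normalization, 1.39-fold. Its 18-base probe read 75.5 to 93.6 and 57.7 to 64.0, 1.34-fold. All 30 spots were well above background on every array, and replicate spots of a probe varied by 1.79% to 4.0% (coefficient of variation).

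For miR-301a-3p the 21-base probe read 25.3 to 32.5 in type H and 15.0 to 16.5 in type L ECs, 1.76-fold, and carried 85.3% to 86.5% of the member's signal. Its 20-base probe read 3.96 to 5.60 and 2.47 to 2.56, 1.80-fold. The longer probe was well above background at 15 of 15 spots on all arrays, and its replicate spots varied by 4.26% to 12%. The shorter probe was near its limit, with 15, 11 and 13 of 15 spots well above background on the type H arrays and 2, 1 and 1 on the type L arrays, and a spot variation of 16.1% to 26.4%. The 1.80-fold of the shorter probe thus rested in type L on signal that was mostly not well above background.

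**Figure D4:**
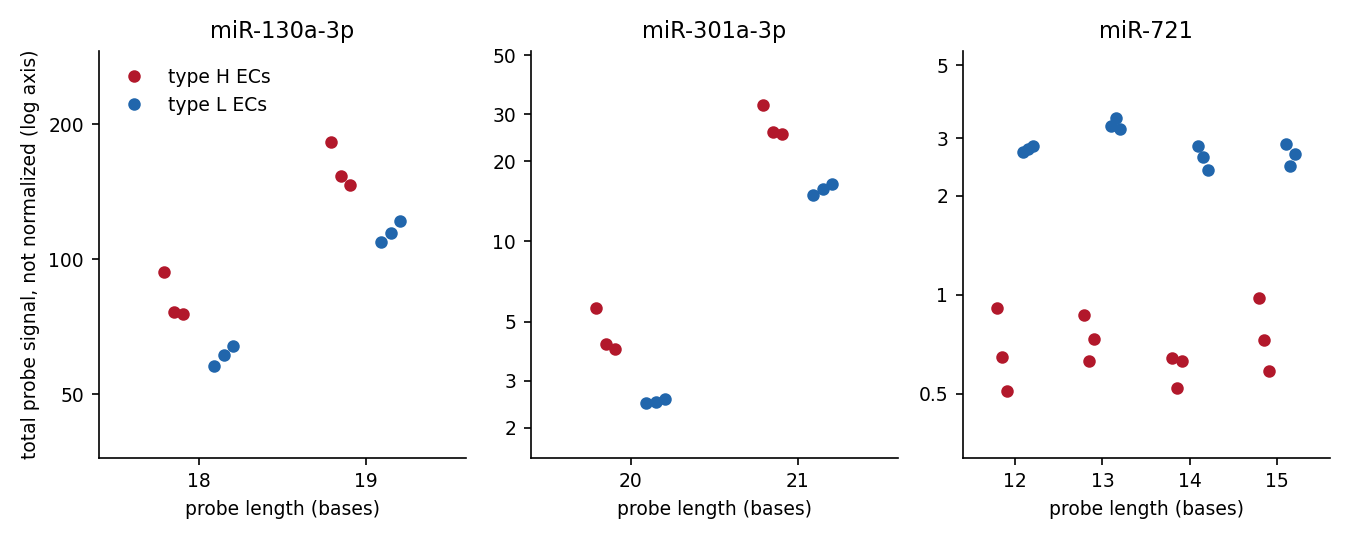
Total probe signal in linear scanner units before normalization (y axis, log scale, a separate range in each panel) by probe length (x axis) for miR-130a-3p, miR-301a-3p and miR-721, with 1 point for each type H (red) and type L (blue) array. For every probe of both members the 3 arrays of one cell type lie apart from the 3 of the other, with type H higher. The probes of miR-721 had 0 spots well above background in type H, and that miRNA was selected through its type L arrays alone.

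The gene totals stored in the scanner files departed from the probe sums of miR-301a-3p on 1 array. The total stored by the scanner software for type L array 1 was 15.0, the reading of the 21-base probe alone, whereas the 2 probes together gave 17.5. For the other arrays of this member, and for all 6 arrays of miR-130a-3p, the stored total equalled the sum of the probes. With stored totals in place of sums the log2 difference of miR-301a-3p was 1.24 and that of miR-130a-3p 0.42. In the authors' normalized log2 table miR-301a-3p was at 5.14 ± 0.025 in type H and 3.96 ± 0.16 in type L ECs (SD, n = 3 each), a difference of 1.18. miR-130a-3p was at 7.95 on each type H array and 7.45 ± 0.089 in type L, a difference of 0.50.

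A correction that models background and signal together (normexp, with an offset of 50 added to each spot) gave 0.50 for miR-301a-3p and 0.43 for miR-130a-3p. The offset is large against a dim probe, and it draws the log2 difference of such a probe towards 0. Under this correction the 2 members were 0.50 and 0.43 above the median of all miRNAs, and both were past the threshold as higher in type H, as were 44.7% of all miRNAs.

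miR-130b-3p and miR-301b-3p, the pair from the hairpins on chromosome 16, gave no detectable signal in either cell type. The summed signal of miR-130b-3p after background subtraction was 0.53, -0.34 and -0.54 in type H and -0.66, -0.73 and -0.91 in type L ECs. That of miR-301b-3p was 0.40, -0.024 and -0.25 in type H and -0.54, -0.82 and -0.77 in type L. These values lay around 0, under the lowest signal of any detected miRNA, which was 0.69 to 1.92 by array. Of 30 spots on an array 0 were well above background for miR-130b-3p and at most 1 for miR-301b-3p. No fold was formed from such values, and amounts under the array's limit cannot be told from absence. The 4 other arms, miR-130a-5p, miR-130b-5p, miR-301a-5p and miR-301b-5p, were likewise detected on 0 of 6 arrays, with summed signals between -0.71 and 1.13.

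The values of like probes were set side by side. The probes of miR-130b-3p, which differ from those of miR-130a-3p at 2 bases, read at most 0.53 on arrays where the miR-130a-3p probes summed to 167.0 or more. The probes of miR-301b-3p, which differ from those of miR-301a-3p at 1 base, read at most 0.40 where the miR-301a-3p probes read 17.5 or more. In each pair 1 member was thus detected on all 6 arrays and the other on none. Pairing of miR-130b-3p or miR-301b-3p with the probes of the detected member was not tested.

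Of the 4 other miRNAs with the family seed, miR-721 was the 1 detected. Its summed signal was 3.40, 2.52 and 2.45 on the type H arrays, where it was not called detected, and 11.7, 11.3 and 11.1 on the type L arrays, where it was. The type L arrays lay above the type H arrays without overlap. On the normalized log2 scale the means were 1.67 ± 0.11 and 3.33 ± 0.063 (SD, n = 3 each). With the type H readings taken as upper bounds, the means of the summed probes on this scale gave at least 3.18-fold in favour of type L ECs. That figure is a point estimate and makes no allowance for its spread. It depended on the signal measure and the scale. The log2 difference was -1.51 with the brightest probe alone, -2.14 under the percentile scaling and -0.29 under normexp. miR-721 entered the test through the type L arrays alone, so that a difference was built into its selection, and no p is given for it. Of the 311 miRNAs tested 13.5% had its pattern of detection, on the 3 type L arrays alone, and 8.04% were lower in type H by at least as much. Its 4 probes, of 12 to 15 bases, read 2.39 to 3.46 in type L ECs before normalization, with 25 to 30 of 30 spots well above background. On the type H arrays 0 of 30 spots were well above background, and no difference was formed by probe. In the authors' table the log2 difference reached -6.59, where undetected miRNAs are set near -3.3, the level at which the type H arrays stand. miR-130c, miR-6341 and miR-6389 were detected on 0 of 6 arrays.

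The seed of the family is also met 1 base out of step in other miRNAs. In miR-19a-3p and miR-19b-3p, known as growth-promoting miRNAs, bases 3 to 8 of the family stand at positions 2 to 7. In miR-148a-3p, miR-148b-3p and miR-152-3p, bases 2 to 7 of the family stand at positions 3 to 8. Both kinds are shown with the member, bases 2 to 8 in capitals.
miR-301a-3p: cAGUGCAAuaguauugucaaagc
miR-19a-3p: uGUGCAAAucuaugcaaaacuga
miR-152-3p: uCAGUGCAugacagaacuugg

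Of these 5 miRNAs 3 were tested, and all 3 passed the test as higher in type H, as did 44.7% of all miRNAs tested. Their median log2 difference was 1.10, the value of miR-19b-3p itself, beside 0.026 over all miRNAs. The mature miR-19a-3p and a copy of miR-19b-3p lie close together on the plus strand, from chr14:115044048 and from chr14:115044358. A common source of their changes was not tested. miR-19a-3p read 22.0, 17.0 and 18.5 in type H and 4.49, 5.22 and 5.78 in type L ECs before normalization. The groups were wide apart, and its log2 difference was 2.24 (SE 0.11, adjusted p 1.3e-05 by limma with Benjamini-Hochberg adjustment), or 3.62 with stored totals and 0.59 under normexp. miR-19b-3p read 165.5, 134.8 and 130.2 in type H and 61.1, 64.6 and 67.5 in type L, again without overlap, with a log2 difference of 1.10 (SE 0.039). miR-152-3p read 68.9, 55.9 and 53.2 in type H and 48.0, 51.9 and 52.8 in type L, where the nearest arrays almost met. Its log2 difference of 0.32 (SE 0.044, adjusted p 0.000756 by limma) did not pass the threshold without normalization (0.21, adjusted p 0.15) or with scaling over all miRNAs (0.22, adjusted p 0.061). With scaling over the detected miRNAs it was 0.11 (adjusted p 0.043 by limma), the smallest value of all settings run. miR-148a-3p was detected on no array and miR-148b-3p on 1 type H array.

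The miRNAs whose profile over the 6 arrays lay nearest to each detected member were found among 230 candidates, by the root mean square difference of log2 values centred on each miRNA's mean. For miR-130a-3p they were miR-331-3p (0.047), miR-151-5p (0.047) and miR-23a-3p (0.057), against a median of 0.27 over the candidates, and their log2 differences between cell types were 0.58, 0.55 and 0.52. For miR-301a-3p they were miR-467d-3p (0.033), miR-143-3p (0.035) and miR-324-5p (0.044), against a median of 0.52, with log2 differences of 1.13, 1.10 and 1.09. The likeness rests on 2 cell types, so that it mainly orders miRNAs by the size of their change. With stored totals miR-467d-3p turned to -0.31 (adjusted p 0.55 by limma), and the others kept their direction. Of these neighbours miR-143-3p is a miRNA of smooth muscle and stromal cells and stood in the stromal list above, of whose 7 tested miRNAs 5 were higher in type H, 1 was lower and 1 did not pass the test. Over all miRNAs tested 44.7% were higher and 42.1% lower by the same test.

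Of 6 other miRNAs listed as linked to angiogenesis, 4 were tested and all 4 passed the test, near the 86.8% that passed it over all miRNAs. Their median log2 difference was 0.19. miR-92a-3p (1.10) and miR-221-3p (0.73) were higher in type H, as were both detected members of the family, whereas the hypoxia-induced miR-210-3p (-0.59) and miR-222-3p (-0.35) were lower.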

How the data were processed

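RNA of 3 type H and 3 type L EC samples was hybridized to 1-colour Agilent mouse miRNA arrays, 1 per sample. The deposited scanner files hold spot intensities that the authors extracted with Agilent Feature Extraction 10.7.1.1, background subtracted and spatially detrended, with detection flags. The labels describe linear amplification of cRNA, and the methods describe Cy3 labelling of small RNA. The array design number in the file headers differs from that in the methods. The authors also deposited a log2 table, quantile normalized. Its array medians were -3.26 to -3.32, the value of undetected miRNAs, and it correlated at 0.983 to 0.997 with the log2 probe sums over 231 miRNAs, so that it was read as log2 without centring of miRNAs. The offset given to undetected miRNAs is unknown.

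From the intensities, the total probe signal was summed over a miRNA's distinct probes, quantile normalized, floored at 1 and taken to log2. A miRNA entered the test if the 3 arrays of either cell type all detected it, which kept 311 and removed 1570. limma 3.58.1 (lmFit, eBayes) in R 4.3.3 compared the cell types, and p-values adjusted after Benjamini-Hochberg were called under 0.05. The number of arrays limits the precision, and 0 spots were saturated. Scripts were tested on simulated data. The probe sums were preferred to the stored gene totals because the latter omit a probe of miR-301a-3p on 1 array.

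The miRNAs named were the members, their other arms, miRNAs with the same or a 1-base shifted seed, the 3 nearest to each detected member, and miRNAs of the endothelial, haematopoietic, stromal and angiogenesis lists. Members, lists and tests were chosen with earlier results of these data known. Sequences came from RefSeq tables (GRCm38.p6) by miRNA name, which held 1608 of the array's miRNAs. The array files place their probes on mm9, and those positions were not used here.

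Alternatives were other scalings, signal measures, filters, floors and tests, array weights, a replicate block and leaving out each array.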

Additional observations from a re-analysis of the deposited data

How the results depend on the processing

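Both detected members kept their direction and stayed past the threshold in all 20 alternatives run on them, at log2 differences of 0.35 to 0.55 for miR-130a-3p and 0.50 to 1.24 for miR-301a-3p, and 2 members passed in each. The other filters, the other floor, the t-test and the replicate block left both differences unchanged and bear on the threshold alone. No alternative put the arrays on the scale of the control features. Leaving out 1 array in turn gave 0.47 to 0.55 for miR-130a-3p and 1.08 to 1.12 for miR-301a-3p. The remaining arrays were not normalized anew, so the omitted array still bore on the scale. Without any 1 of the type H arrays miR-130a-3p stayed at 0.51, since its normalized values on those arrays were identical. Those omissions could not move its difference, and its range rests on the type L omissions alone. The gap between the 2 members, 0.60, was 0.37 under 75th percentile scaling and 0.37 without normalization. It was 0.68 in the authors' table and 0.57 to 0.65 with an array left out. The count of miRNAs past the threshold, 270, was 413 with no filter, where most miRNAs sat at the floor with no spread, 194 to 274 under the other settings, and 260 to 266 with an array left out. The share of calls that were higher in type H was 51.5%, and 35.8% under percentile scaling and 40.3% without normalization. miR-467d-3p turned to -0.31 with stored totals, and the cause was not tested. No pairing of the arrays by replicate number was seen. Same-numbered arrays correlated at -0.0055, -0.025 and 0.12 in their deviations from the group means, and not every array correlated best with its own number. Whether arrays of the same number came from the same mice cannot be told from these values. With the replicate number as a block, 262 miRNAs and both detected members passed, at adjusted p of 0.00164 for miR-130a-3p and 0.000216 for miR-301a-3p by limma. Signal over background limits the dim probes, as for the shorter probe of miR-301a-3p in type L ECs.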
